A study of Arabidopsis thaliana with 15 samples.

Results

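The genes described here had their highest expression in early precursors of the Arabidopsis thaliana stomatal lineage. They were chosen by their values on Affymetrix ATH1 arrays: a probe set had to be listed to 1 gene, its lowest early precursor array had to lie above all 12 other arrays, and its early precursor mean had to be at least 1.5 above each of the other 4 group means on the log2 scale. Of 12783 probe sets listed to 1 gene, 549 (4.29%) had that separation of arrays and 48 (0.375%) also had the margin. Removing SPCH, ATLP-1, AT3G51280, AT3G15550 and the ribosomal protein gene AT3G16780, which the choice leaves out by name, left 43 probe sets of 42 genes, out of 20956 probe sets in the whole table. UBC20 and 3xHMG-box2, also named for removal, had margins of 1.35 and 1.22 and would not have entered. Because these values chose the genes, every difference between early precursors and another population is given below as a description with no test.

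The 15 arrays cover 5 populations of fluorescent protoplasts sorted out of the shoots of seedlings aged 14 days, all in the Col background, with 3 arrays each. The early precursors, labelled as meristemoid mother cells with young meristemoids, carried SPCHp::SPCH-YFP, a fusion of SPCH driven by its own promoter. Middle precursors (late meristemoids and young guard mother cells) carried MUTEp::nucGFP, late precursors (guard mother cells that were mature, with young guard cells) carried FAMAp::GFP-FAMA, mature guard cells carried the enhancer trap E1728::GFP, and the epidermis as a whole carried ML1p::YFP-RCI2A. All plants had grown at 25 °C on 1% sucrose with 16 hours of light and 8 hours of darkness, and all tissue had been digested for 2 hours, so the treatment that releases protoplasts is common to every group. Every population has a different reporter line, the early line carries added SPCH and the late line added FAMA, so stage, reporter line and added factor cannot be told apart for any gene. Between 2000 and 20000 cells went into a replicate. The most alike arrays were late replicates 2 and 3, with a correlation of 0.994 over all probe sets, against 0.982 at most in another population. The SD of their differences was 0.209, against 0.357 or more in every other pair. They are counted as separate arrays, as labelled. Late precursor counts that change when these arrays are averaged as 1 are given with both values. Calls lost on averaging are stated for members given with their own adjusted p.

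Stomata arise from protodermal cells that divide asymmetrically. The basic helix-loop-helix factor SPCH starts these divisions and keeps the smaller daughter, the meristemoid, dividing for some rounds before the related factor MUTE turns it into a guard mother cell and FAMA oversees the last division and guard cell fate. Cells of the early stage are therefore small, growing, mitotically active and polarised, and proteins of the BASL and BRX families gather at the cell cortex to make their divisions unequal. Few known genes of the stages could be measured. SPCH, which the early line carries as a transgene and which itself met the choice, stood at 9.19, 9.15 and 9.0 in early precursors and at no more than 4.77 on any other array. MUTE was near the background in early precursors (1.69, 1.68 and 1.70). Its mean was also near the background in every other population, middle precursors included (2.41, 1.92 and 2.78). In the limma fit described below, MUTE was still higher in middle precursors than in the epidermis (adjusted p = 0.0337). It was lower in late than in middle precursors (limma adjusted p = 0.0341). No fold is given, as all these means are near the background. FAMA stood at 2.32, 1.90 and 2.66 in early precursors, against 9.87, 10.08 and 10.39 in late precursors, whose line carries FAMA as a transgene. In lines whose reporter holds no FAMA, it stood at 6.50, 6.47 and 6.93 in middle precursors and 6.91, 7.51 and 7.29 in mature guard cells. In the epidermis FAMA was at 3.38, 3.15 and 3.02. Each population has its own reporter line, and the early line carries added SPCH. None of these values is therefore an independent check of the early stage, and other measured genes varied between the early arrays, as given below.

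All levels are log2 expression values from RMA, which summarises the probes of a probe set on a common scale, and levels of different probe sets are not compared with each other. The array medians lay between 2.52 and 2.68, and a group mean at or below 2.68 is called near the background, a bound chosen after the values were seen. A difference or fold that rests on such a mean is written as at least the printed value. In a sorted population, a higher share of cells that express a gene and more RNA per cell cannot be told apart. Nothing in the labels tells whether replicates were separate cultures, so the p-values below measure differences against the spread between these arrays. The annotation gives a name beyond the locus code to 3 of the 42 genes, ATBRXL2, EXPB3 and NET3A, so the other 39 are given by locus with no role, and the genes are ordered by where else in the lineage they were expressed.

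**Figure D1:**
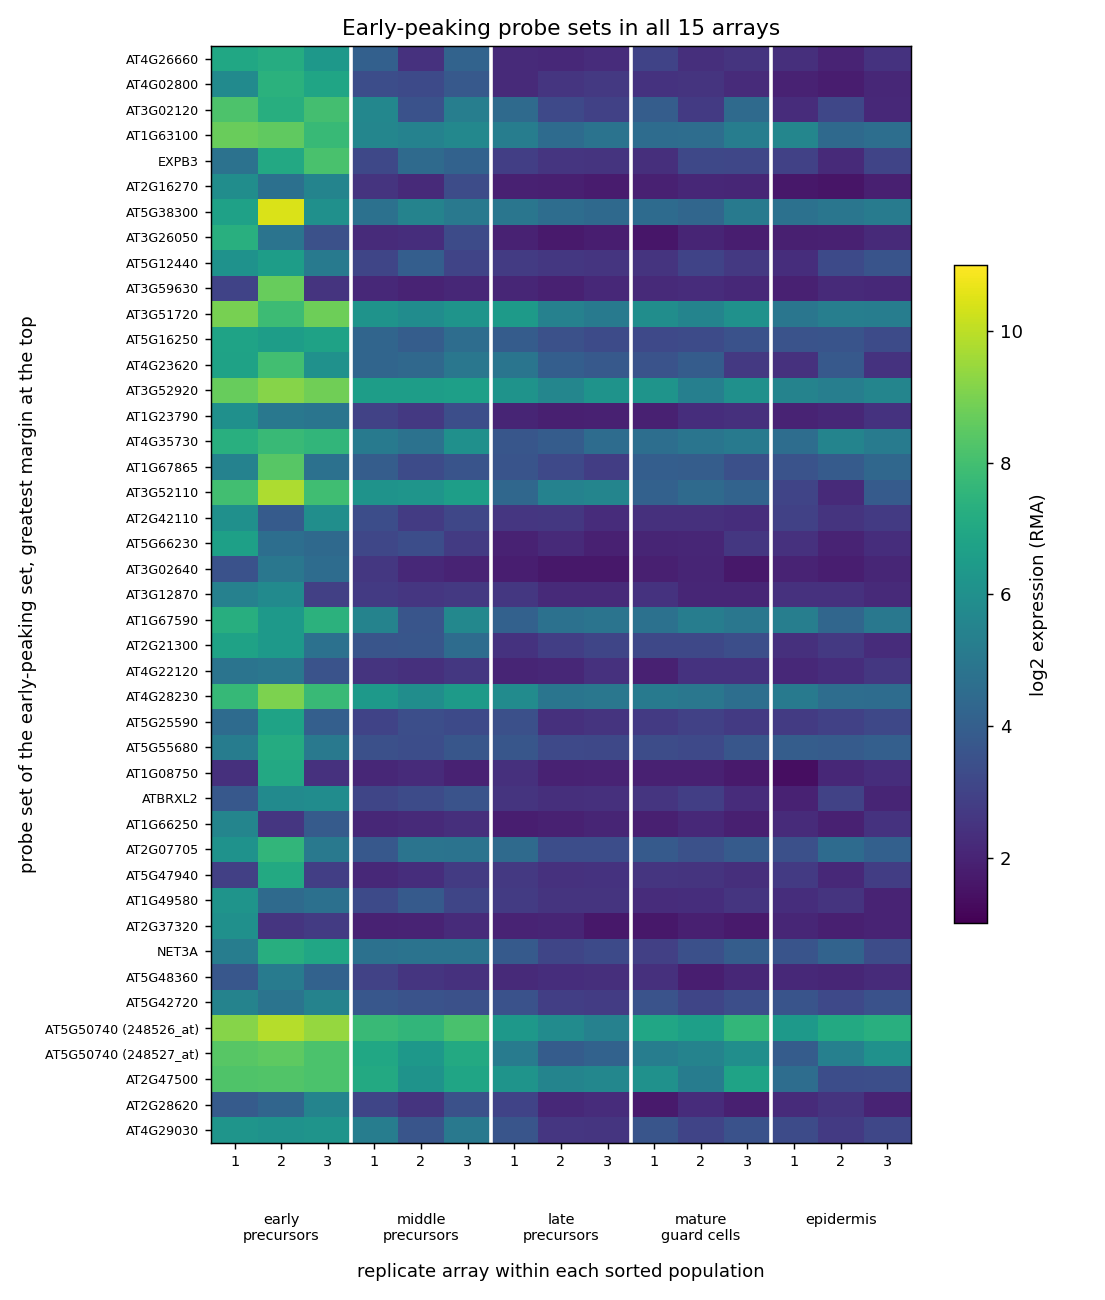
Log2 expression (colour) of the 43 early-peaking probe sets (rows, greatest margin at the top) on the 15 arrays (columns, 3 replicates for each of early precursors, middle precursors, late precursors, mature guard cells and epidermis). The early columns are the brightest in each row because that chose the rows; the middle precursor columns are next in 37 of them.

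ATBRXL2 belongs to the BRX family, whose members act with BASL in the polarity of asymmetric stomatal divisions. Its level was 3.74, 5.79 and 5.85 in early precursors, 3.08, 3.30 and 3.54 in middle precursors, 2.50, 2.34 and 2.39 in late precursors, then 2.54, 2.87 and 2.29 in mature guard cells, and 1.96, 2.97 and 2.03 in the epidermis. Early replicate 1 lay only just above the highest other array, and the early arrays spanned 2.1 log2 units. ATBRXL2 was above the background bound in early and middle precursors and below it in the 3 other populations.

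EXPB3 encodes a beta-expansin, a protein that loosens cell walls. It stood at 4.76, 7.04 and 8.14 in early precursors, 3.16, 4.44 and 4.14 in middle precursors, 2.84, 2.53 and 2.51 in late precursors, then 2.36, 3.18 and 3.12 in mature guard cells, and 2.95, 2.20 and 3.05 in the epidermis. Its early arrays spanned 3.38 log2 units, and the lowest of them was 0.32 above the highest middle array.

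NET3A encodes a member of the Networked family, plant proteins that bind actin filaments and link them to membranes. It stood at 5.23, 7.25 and 6.91 in early precursors and at 4.72, 4.79 and 4.80 in middle precursors. It stood at 3.82, 3.10 and 3.26 in late precursors, then 2.90, 3.42 and 3.96 in mature guard cells, and 3.58, 4.17 and 3.31 in the epidermis. Its middle precursor arrays lay above all those of the later stages and the epidermis, as they did for ATBRXL2 but not for EXPB3. In all 3 named genes early replicate 1 was the lowest early array.

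Genes with expression in early and middle precursors alone formed a group of 7, ATBRXL2 among them, with means above the bound in no other population. AT4G26660, which had the greatest margin of all, stood at 6.94, 7.19 and 6.35 in early precursors, 4.07, 2.44 and 4.17 in middle precursors, 2.20, 2.15 and 2.29 in late precursors, then 3.02, 2.35 and 2.50 in mature guard cells, and 2.36, 2.01 and 2.48 in the epidermis. Its early mean was 3.27 above the middle mean, a 9.64-fold difference. Middle replicate 2 fell among the arrays of the later stages, whereas the other middle arrays stood above them all.

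AT4G02800 showed the same order with closer middle arrays. It stood at 5.79, 7.39 and 6.86 in early precursors and 3.35, 3.24 and 3.78 in middle precursors, against 2.18, 2.55 and 2.65 in late precursors, then 2.47, 2.49 and 2.24 in mature guard cells, and 1.95, 1.82 and 2.11 in the epidermis. All its middle arrays lay above every array of the later stages and the epidermis. The remaining members of this group were AT1G23790, AT5G66230, AT1G49580 and AT2G28620, and the middle means of all 7 ran up to 3.56.

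A further 11 genes had means near the background in all 4 other populations: AT2G16270, AT3G26050, AT3G59630, AT3G02640, AT3G12870, AT4G22120, AT1G08750, AT1G66250, AT5G47940, AT2G37320 and AT5G48360. Their early means lay between 3.77 and 5.37. AT2G16270, with the highest of these means, stood at 5.90, 4.69 and 5.51 in early precursors and at 2.51, 2.18 and 3.32 in middle precursors, 1.94, 1.89 and 1.74 in late precursors, then 1.93, 2.11 and 2.09 in mature guard cells, and 1.66, 1.58 and 1.88 in the epidermis. All its early arrays were well above the rest.

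That was not so for several others of these 11. AT3G59630 stood at 3.00, 8.67 and 2.51 in early precursors, against 2.27 on the highest other array. AT1G08750 stood at 2.39, 7.03 and 2.44, and AT5G47940 at 2.88, 7.09 and 2.87, with highest other arrays of 2.38 and 2.80. In these 3 genes early replicate 2 alone was far above the other arrays. In AT2G37320 it was early replicate 1, at 6.01, 2.55 and 2.74 against 2.23. The gap of AT1G08750 between its lowest early and its highest other array was 0.0077, the smallest of all.

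At the other end, 20 probe sets of 19 genes were above the bound in all 5 populations, so that the early stage had the highest level of genes that were expressed elsewhere too. AT3G52920 is an example with close replicates, at 8.66, 9.20 and 8.84 in early precursors, 6.55, 6.55 and 6.63 in middle precursors, 6.13, 5.58 and 6.13 in late precursors, then 6.18, 5.33 and 6.0 in mature guard cells, and 5.47, 5.29 and 5.54 in the epidermis. AT5G16250 had 6.81, 6.56 and 6.74 in early precursors and 4.26, 3.94 and 4.58 in middle precursors, against 3.55, 3.58 and 3.29 in the epidermis. AT1G63100 had 8.70, 8.57 and 7.75 in early precursors and 5.58, 5.45 and 5.68 in middle precursors, against 5.59, 4.41 and 4.62 in the epidermis. In each of these the early arrays lay at least 1 log2 unit above every other array.

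AT5G50740 was measured by 2 probe sets, which share their RNA and so are not independent of each other. The brighter probe set stood at 9.18, 9.88 and 9.44 in early precursors, 7.79, 7.58 and 8.12 in middle precursors, 6.32, 5.83 and 5.40 in late precursors, then 6.93, 6.64 and 7.61 in mature guard cells, and 6.37, 7.06 and 7.30 in the epidermis. The dimmer stood at 8.42, 8.52 and 8.18 in early precursors, 6.95, 6.35 and 7.09 in middle precursors, 5.16, 3.90 and 4.15 in late precursors, then 5.25, 5.46 and 5.93 in mature guard cells, and 3.91, 5.35 and 6.08 in the epidermis. Both had their lowest mean in late precursors and a higher one in mature guard cells. AT5G50740 was the only gene with more than 1 probe set here, and all probe sets listed to the 42 genes had met the choice.

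The remaining 5 genes were AT3G02120, EXPB3, AT5G12440, AT2G42110 and AT2G21300, each above the bound in middle precursors and in 1 or 2 of the other populations. AT3G02120 stood at 8.22, 7.27 and 8.02 in early precursors, 5.62, 3.54 and 5.29 in middle precursors, 4.47, 3.19 and 2.95 in late precursors, then 3.96, 2.68 and 4.44 in mature guard cells, and 2.26, 3.13 and 2.17 in the epidermis. Its early arrays were far above the rest, and its middle replicate 2 fell within the range of the later stages.

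Over all 43 probe sets the margin ran from 1.52 to 3.27 with a median of 2.04, that is 2.86-fold to 9.64-fold over the next population. For the 11 near the background in all 4 other populations, the margin and fold are lower bounds. Just inside the threshold were AT4G29030 (margin 1.52), AT2G28620 (1.53) and AT2G47500 (1.54). Just outside it, with the arrays still separated, were AT3G44050 (1.42), AT3G03130 (1.40) and AT3G47530 (1.39). The margins of AT3G03130 and AT3G47530 also rest on near-background means. Another 22 probe sets passed the margin but not the separation of arrays. The genes lay on all 5 chromosomes. AT4G28230 and EXPB3 (AT4G28250) were the closest pair, with 1 protein-coding gene between them in the order of the TAIR10.1 reference, and the next closest pair had 32 between them.

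Agreement between the early arrays differed widely from gene to gene. The 3 early arrays spanned 0.108 log2 units in AT4G29030 (6.20, 6.09 and 6.16) and 0.120 in AT2G47500, but 6.16 in AT3G59630, with a median of 1.66, and 32 of the 43 spanned more than 1. The highest early array was replicate 2 in 24 cases, replicate 1 in 15 and replicate 3 in 4. In 14 probe sets at least 1 early array lay within 0.5 of the highest other array, and in AT1G08750 and AT5G47940 that was true of 2. With early replicate 1, 2 or 3 left out, 38, 29 and 40 of the 43 still met the choice, and 23 did so whichever was left out.

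**Figure D2:**
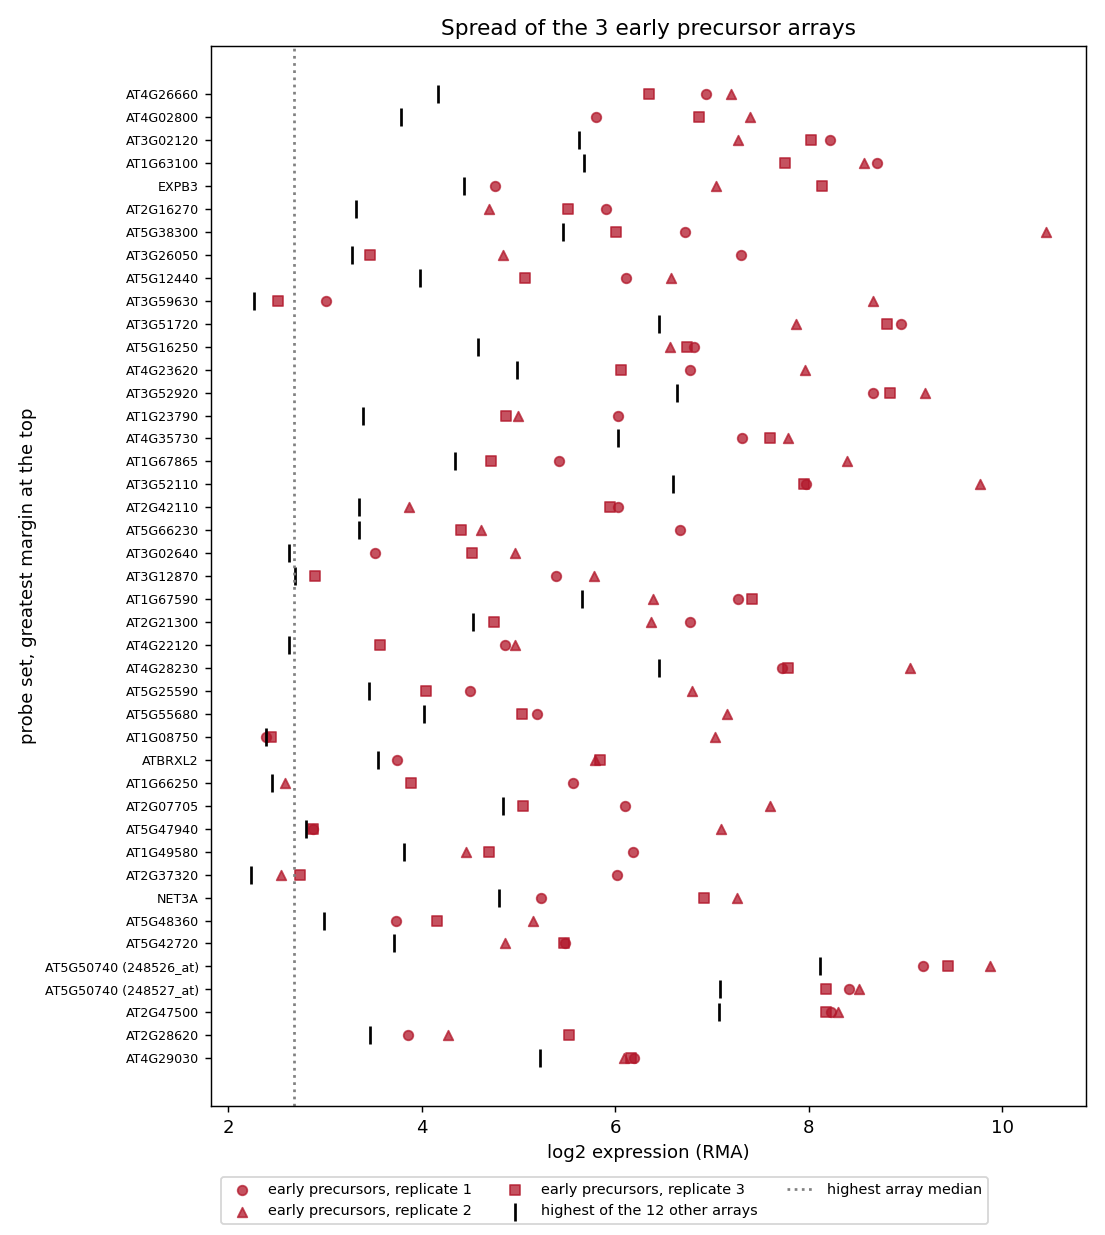
Log2 expression of each early-peaking probe set (rows) on the 3 early precursor arrays (circle, replicate 1; triangle, replicate 2; square, replicate 3), with the highest of the 12 other arrays (black bar) and the highest array median (dotted line). AT4G29030 and AT2G47500 have nearly coincident early arrays, whereas in AT3G59630, AT1G08750 and AT5G47940 only replicate 2 stands far to the right.

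Early precursors were also the most variable population over the whole table, with a residual SD of 0.658, against 0.282 to 0.383 in the other groups. For the 43 probe sets it was 1.29 in early precursors, against 0.338 to 0.460 in the others. Markers of other cells moved between the early arrays too. Of 13 mature guard cell markers 3 were measured, and their summed log2 level was 8.80 to 15.2 in early precursors, 12.6 to 16.3 in middle precursors, 19.9 to 23.0 in late precursors, 20.5 to 21.2 in mature guard cells and 13.8 to 14.7 in the epidermis. GC1, a guard cell gene, was at 6.99, 2.73 and 2.28 on the early arrays. BLUS1 was near the background on all of them, and its means were so in the other populations too.

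Of 14 mesophyll and photosynthesis markers 4 were measured. Their sum was 18.8 to 27.3 in early precursors and 30.6 to 32.9 in the epidermis. It was 24.72 to 24.97 in middle precursors, 21.99 to 24.46 in late precursors and 24.15 to 26.52 in mature guard cells. Early replicate 3 had the highest early sum, below the epidermis but above every array of these later stages. The lowest early sum was below all of them. SBPASE, a Calvin cycle enzyme, was at 4.03, 3.65 and 6.95 on the early arrays. RCA and PSAE-1 were also highest on early replicate 3 (9.52 and 9.18), whereas STOMAGEN, near the background, was lowest there (1.69). The trichome gene TRY, 1 of 7 listed, was at 2.57, 6.61 and 2.32, with replicate 2 high as in AT3G59630, AT1G08750 and AT5G47940. The single measured vascular (SWEET11) and shoot meristem (CLV3) markers were near the background on every early array. Their means were near the background in all other populations too, so their low early values do not set early precursors apart. CML38, the single measured wound and protoplasting marker, was at 6.22 to 7.60 in early precursors, against 9.0 to 9.23 in the epidermis. None of the 7 epidermis and cuticle or the 7 nucleolus genes listed was measured. The part of these differences in the early values of the 43 probe sets was not tested.

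Whether the genes differed among the remaining populations was then tested in limma on the 12 arrays without early precursors, which the choice had used only as an upper bound. P-values were two-sided and adjusted by Benjamini-Hochberg over all 20956 probe sets, with a threshold of 0.05. The first question was whether the genes were still raised in the next stage, middle precursors, over the epidermis. They often were: 18 of the 43 probe sets were higher and 0 lower, where 7.25% of all probe sets were higher and 4.66% lower. The median difference of the 43 was 0.78 on the log2 scale, against -0.05 over all probe sets. Of the 43 differences 40 were positive, against 44.3% over all probe sets. At an unadjusted p under 0.05, 25 were higher and 1 lower. The share of all probe sets at the unadjusted threshold was not counted, here or below, so such counts are description only. In 23 of the 43 all middle arrays lay above all epidermis arrays, against 14.6% of all probe sets. The count of higher probe sets was 10 without epidermis replicate 1, epidermis replicate 3 or middle replicate 1, 9 without middle replicate 3, 8 with the early arrays in the fit, 9 with only these groups fitted, and 10 after cyclic loess, which also changed the share of higher calls over all probe sets to 48.8%, against 60.9% as deposited.

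AT3G52110 had the greatest difference. It stood at 7.96, 9.77 and 7.95 in early precursors, 6.13, 6.21 and 6.60 in middle precursors, 4.35, 5.42 and 5.56 in late precursors, then 4.11, 4.45 and 4.18 in mature guard cells, and 3.06, 2.20 and 3.88 in the epidermis. Middle precursors were 9.63-fold above the epidermis (log2 difference 3.27, SE 0.40; limma adjusted p = 0.000574), with no overlap between their arrays. Late precursors were also above the epidermis, by 2.07 (SE 0.40; limma adjusted p = 0.00604). Its mean was lower at each successive stage and lowest in the epidermis. The step from middle to late precursors did not pass (-1.20, SE 0.40, limma adjusted p = 0.111). Nor did that from late precursors to mature guard cells (-0.87, SE 0.40, limma adjusted p = 0.518).

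AT2G47500 was raised over the epidermis in every later stage. It stood at 8.23, 8.30 and 8.18 in early precursors, 7.07, 6.14 and 6.88 in middle precursors, 6.16, 5.53 and 5.61 in late precursors, then 6.04, 5.21 and 6.79 in mature guard cells, and 4.59, 3.37 and 3.40 in the epidermis. The log2 difference from the epidermis was 2.91 in middle precursors, 2.23 in mature guard cells and 1.98 in late precursors (SE 0.43 each; limma adjusted p = 0.00174, 0.0111 and 0.0113). These 3 comparisons share the epidermis arrays, and in each the stage's arrays lay above all of the epidermis. With only mature guard cells and the epidermis fitted, the call between them was lost (limma adjusted p = 0.0689).

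AT4G02800 was at least 1.5 higher in middle precursors than in the epidermis (SE 0.18; limma adjusted p = 0.000457). AT4G28230 stood at 7.72, 9.04 and 7.79 in early precursors, 6.42, 5.89 and 6.45 in middle precursors, 5.83, 4.89 and 4.97 in late precursors, then 5.11, 4.96 and 4.61 in mature guard cells, and 5.07, 4.58 and 4.52 in the epidermis. Its middle precursor level was 1.53 above the epidermis (SE 0.27; limma adjusted p = 0.00463). The middle precursor calls of AT3G52110, AT2G47500, AT4G02800 and AT4G28230 held in all 12 fits that left out 1 array.

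ATBRXL2 was higher in middle precursors than in the epidermis by at least 0.99 (SE 0.25; limma adjusted p = 0.0297), NET3A by 1.08 (SE 0.29; 0.0346) and EXPB3 by 1.18 (SE 0.34; 0.0473). These calls rest on few arrays. That of ATBRXL2 was lost without epidermis replicate 1 or 3 or middle replicate 2 or 3, with adjusted p up to 0.112 in those limma fits, that of NET3A without epidermis replicate 1 or 3 or any middle replicate (up to 0.113), and that of EXPB3 in all but 2 of the 12 fits that left out an array (up to 0.15). With the early arrays in the fit all 3 calls were lost, at limma adjusted p of 0.246 for ATBRXL2, 0.192 for NET3A and 0.332 for EXPB3. Those of NET3A and EXPB3 were also lost with the replicate number as a block (limma adjusted p = 0.0596 and 0.0608) and after cyclic loess (0.0892 and 0.106). Those of ATBRXL2 and EXPB3 were lost with only these groups fitted (0.0918 and 0.109), and that of EXPB3 with array weights (0.0756) or late replicates 2 and 3 averaged (0.0678).

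AT3G02120, AT5G50740 (the dimmer probe set) and AT4G23620 were higher in middle precursors by at least 2.29, by 1.68 and by 1.64, with limma adjusted p of 0.0337, 0.0484 and 0.033. The brighter AT5G50740 probe set did not pass in this comparison (0.92, SE 0.32, limma adjusted p = 0.0891). AT4G23620 stood at 6.77, 7.96 and 6.06 in early precursors and 4.26, 4.39 and 4.98 in middle precursors, against 2.44, 3.79 and 2.48 in the epidermis. The call of AT4G23620 was lost without epidermis replicate 1 or 3 or any middle replicate, and that of AT3G02120 without epidermis replicate 1 or 3, middle replicate 1 or 3 or late replicate 2. That of AT5G50740 was lost in 10 of the 12 such fits, all but those without epidermis replicate 3 or late replicate 1. All 3 calls were also lost after cyclic loess and with only these groups fitted, those of AT4G23620 and AT5G50740 with the early arrays in the fit, and that of AT5G50740 with the replicate block or late replicates 2 and 3 averaged (limma adjusted p from 0.0504 to 0.109). The other 8 higher probe sets were AT4G29030, AT2G21300, AT3G52920, AT1G49580, AT2G16270, AT5G66230, AT1G23790 and AT5G16250, with fitted differences of 0.79 to 1.60. Those of AT2G21300, AT1G49580, AT5G66230 and AT1G23790 are lower bounds, with the epidermis near the background.

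By their level elsewhere, the 18 higher probe sets included 9 of the 20 that were above the bound in all populations, 5 of the 7 expressed in early and middle precursors alone, 3 of the 5 with a mixed pattern and 1 of the 11 near the background, AT2G16270. These patterns were defined from the same middle precursor and epidermis means, so the shares of the 7 and the 11 were largely set in advance. Both means of AT2G16270 are near the background (2.67 ± 0.59 in middle precursors and 1.70 ± 0.16 in the epidermis, SD, n = 3 each), so no fold is given for it. Of the 18, 12 were among the 23 probe sets that met the choice whichever early array was left out.

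**Figure D3:**
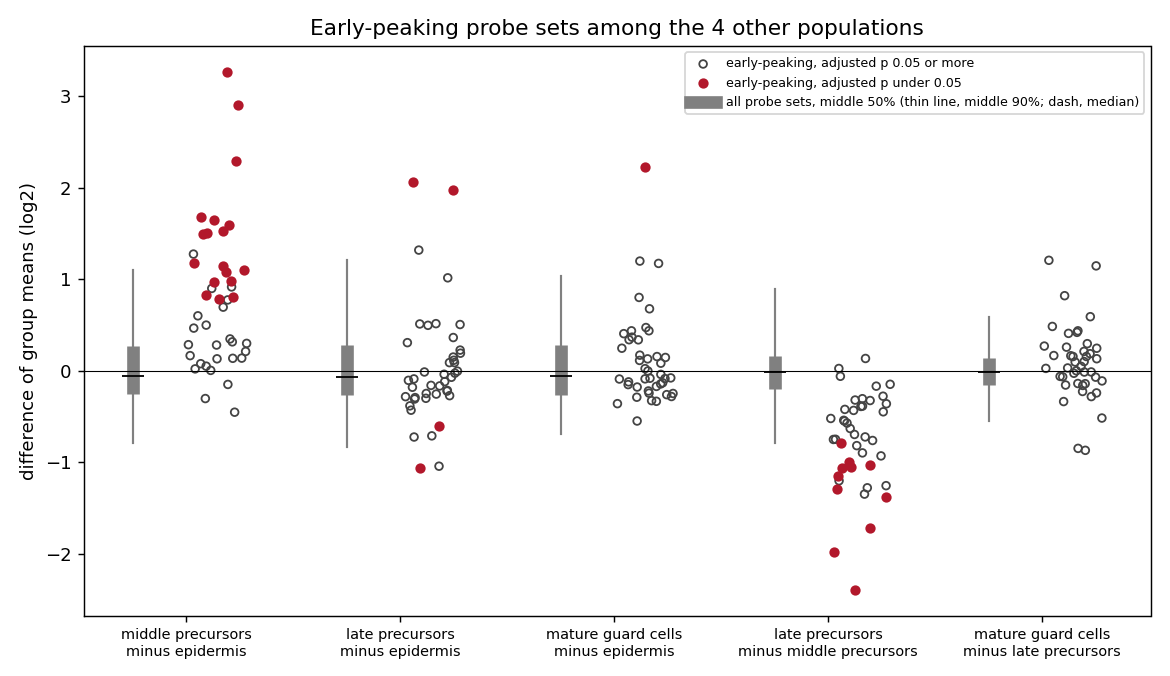
Difference of group means (log2, vertical axis) in the 5 tested comparisons for the early-peaking probe sets (points; filled where the adjusted p was under 0.05) beside all 20956 probe sets (grey bar, middle 50%; thin line, middle 90%; dash, median). The points lie mostly above 0 in middle precursors minus epidermis, mostly below 0 in late minus middle precursors, and around 0 in the other comparisons.

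The second question was whether the genes fell further when middle precursors gave way to late precursors. Of the 43 probe sets 11, of 10 genes, were lower in late precursors and 0 higher, where 3.17% of all probe sets were lower and 3.57% higher. The median difference was -0.72, against -0.01 over all probe sets. Of the 43 differences 41 were negative and 2 positive, where 47.9% over all probe sets were positive. At an unadjusted p under 0.05, 24 were lower and 0 higher, and in 25 all late arrays lay below all middle arrays, against 14% of all probe sets. Middle precursors serve both here and in the comparison above, so a high middle array moves both. Of the 43 probe sets 10 passed in both, and the share of all probe sets that did was not counted. The count of lower probe sets was 6 without middle replicate 1 or 3, 4 without late replicate 2 or 3, 5 with those late replicates averaged as 1, 3 with the early arrays in the fit, 7 with only these groups fitted and 31 with array weights.

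AT5G50740 fell most, by 2.39 (dimmer probe set, SE 0.49; limma adjusted p = 0.0143) and 1.98 (brighter probe set, SE 0.32; 0.00429). AT4G29030 stood at 6.20, 6.09 and 6.16 in early precursors, 5.22, 3.64 and 5.03 in middle precursors and 3.63, 2.59 and 2.52 in late precursors, a fall of 1.71 between the last 2 stages (SE 0.41; limma adjusted p = 0.029). NET3A fell by 1.37 (SE 0.29; limma adjusted p = 0.0163). AT2G21300 stood at 6.77, 6.37 and 4.74 in early precursors, 3.65, 3.67 and 4.53 in middle precursors and 2.46, 2.87 and 3.10 in late precursors, and fell by 1.14 (SE 0.24; limma adjusted p = 0.0165).

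EXPB3 reached the near-background range in late precursors and was lower by at least 1.29 (SE 0.34; limma adjusted p = 0.0482). The call of the brighter AT5G50740 probe set held in all 12 fits that left out an array. Those of the dimmer one, AT4G29030 and NET3A were lost without middle replicate 1 or 3 or late replicate 2 or 3, that of AT2G21300 without late replicate 2, and that of EXPB3 in 9 of the 12 (all but those without epidermis replicate 2, middle replicate 1 or mature guard cell replicate 1). With late replicates 2 and 3 averaged, the calls of the dimmer AT5G50740 probe set, AT4G29030, NET3A and EXPB3 were lost (limma adjusted p = 0.0663, 0.122, 0.073 and 0.154). With the early arrays in the fit those of NET3A, AT2G21300 and EXPB3 were lost (0.137, 0.199 and 0.426), and with only these groups those of AT4G29030, AT2G21300 and EXPB3 (0.0741, 0.0512 and 0.0531). That of EXPB3 was also lost after cyclic loess (0.0543) and with the replicate block (0.0649). The other 5 were AT1G23790, AT5G66230, AT4G28230, AT4G02800 and AT1G49580, with fitted differences of -1.06 to -0.79, bounds except for AT4G28230 because the late mean was near the background. With late replicates 2 and 3 averaged, 5 of the 11 calls were kept, and those lost included some of these other 5 genes. ATBRXL2 did not pass (limma adjusted p = 0.0635); its fitted difference of -0.90 (SE 0.25) is only a bound, with the late mean near the background.

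**Figure D4:**
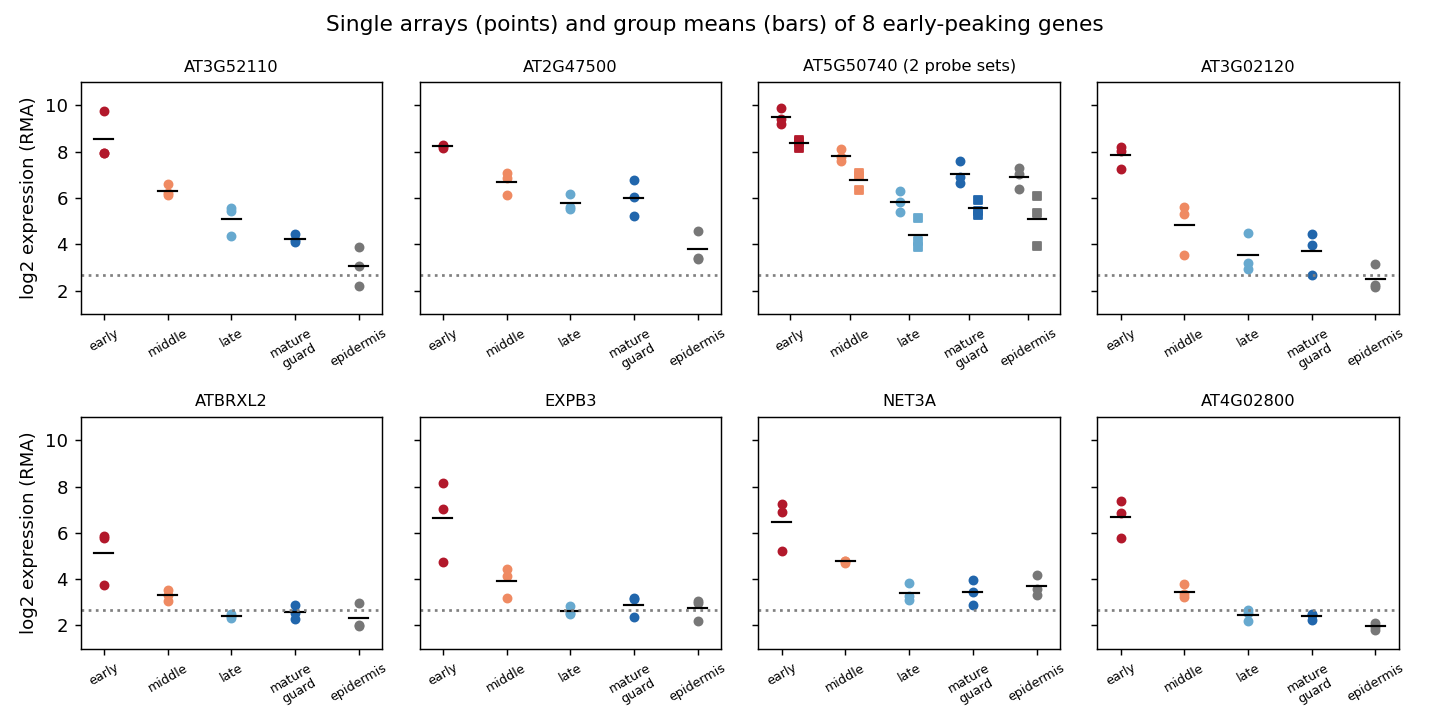
Log2 expression of 8 early-peaking genes on single arrays (points) with group means (bars), from early precursors at the left through middle and late precursors and mature guard cells to the epidermis; circles and squares separate the 2 probe sets of AT5G50740, and the dotted line is the highest array median. The means of AT3G52110 and AT4G02800 step down from early to middle to late precursors, and AT2G47500 stays above the epidermis in every stage. Both AT5G50740 probe sets have their lowest mean in late precursors.

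The later stages were then set against the epidermis, where the share of the 43 probe sets that passed was near or below that of all probe sets. In late precursors 2 of the 43, AT3G52110 and AT2G47500, were higher than in the epidermis and 2 were lower, against 8.43% and 5.52% of all probe sets (14% in either direction), and the median difference was -0.09 (all probe sets, -0.06). In mature guard cells 1, AT2G47500, was higher and 0 lower, against 5.45% and 3.83% (9.28% in either direction), with a median of -0.04 (all probe sets, -0.06). At an unadjusted p under 0.05, limma gave 5 higher and 4 lower in late precursors, and 5 higher and 1 lower in mature guard cells. Many of the 43 were near the background in both groups, and a difference that did not pass does not show equal levels. The lower pair in late precursors were AT5G50740 (the brighter probe set), which differed by -1.06 (SE 0.32; limma adjusted p = 0.0487), and AT5G55680, which differed by -0.60 (SE 0.18; 0.0444). The dimmer AT5G50740 probe set did not pass in this comparison (-0.71, SE 0.49, limma adjusted p = 0.361). AT5G55680 stood at 5.19, 7.16 and 5.03 in early precursors and 3.69, 3.21 and 3.15 in late precursors, against 3.96, 3.87 and 4.02 in the epidermis. These 2 calls were lost in 8 and 10 of the 12 fits that left out an array, that of AT5G50740 in all but those without epidermis replicate 1, late replicate 1 or mature guard cell replicates 2 and 3, and that of AT5G55680 in all but those without late replicate 1 or mature guard cell replicate 3. Both were also lost with the early arrays in the fit, the replicate block, late replicates 2 and 3 averaged or only these groups fitted, and that of AT5G55680 with a variance trend or low probe sets filtered (limma adjusted p from 0.0505 to 0.43).

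Between mature guard cells and late precursors 0 of the 43 passed in limma, where 0.11% of all probe sets were higher and 0.0907% lower (0.2% in all). At an unadjusted p under 0.05, 4 were higher and 0 lower, and with array weights limma called 2 higher and 1 lower. The median difference was 0.05 (all probe sets, -0.01).

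Other genes of the early stage were followed from lists written with earlier results known, of which few members could be measured. Of 13 entry and early lineage genes 2 were measured, SPCH and ATBRXL2. Both were higher in middle precursors than in the epidermis, SPCH by at least 1.83 (SE 0.27; limma adjusted p = 0.00174). SPCH was lower in late than in middle precursors by at least 1.79 (SE 0.27; limma adjusted p = 0.003). Of 15 G2/M genes 2 were measured, the Aurora kinases AUR1 and AUR2, which act in mitosis and the placement of division planes.

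AUR1 stood at 4.84, 2.55 and 4.96 in early precursors and 4.48, 2.87 and 2.70 in middle precursors, against 2.1, 1.90 and 2.05 in the epidermis. AUR2 stood at 4.07, 6.29 and 4.89 in early precursors and 4.21, 4.56 and 5.14 in middle precursors, against 3.10, 3.67 and 3.26 in the epidermis. Both were higher in middle precursors than in the epidermis, AUR1 by at least 1.33 (SE 0.37; limma adjusted p = 0.0406) and AUR2 by 1.29 (SE 0.37; limma adjusted p = 0.043). Whether these calls hold in fits that left out an array or changed a setting was not examined for AUR1 or AUR2. In AUR1, middle replicate 1 stood far above the other middle arrays. Neither AUR1 nor AUR2 passed between late and middle precursors (fitted difference -1.18 for each, only a bound for AUR1, whose late mean was near the background; limma adjusted p = 0.0933 and 0.0865), and neither had the margin of the early-peaking genes, AUR1 with 0.77 and AUR2 with 0.45 over middle precursors. PRL, a subunit of the replicative helicase and the single measured gene of 12 S phase genes, was near the background in early precursors (2.07, 1.86 and 2.27) and at 2.89, 3.30 and 3.72 in middle precursors. Its means were near the background in late precursors, mature guard cells and the epidermis too. PRL was higher in middle precursors than in the epidermis by at least 1.21 (SE 0.23; limma adjusted p = 0.00682). It was lower in late than in middle precursors by at least 1.18 (SE 0.23; limma adjusted p = 0.0107). The calls of SPCH, MUTE and PRL were not followed in other fits either.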

How the data were processed

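The deposited table holds log2 expression, with a value for each probe set on each array. Per the submitters' processing notes it was made using affy and RMA; versions, probe set definitions and genome build are not given in the sources used here, and the log base is inferred from RMA and the range of 1.11 to 13.4. RMA shares probe effects and quantiles over all arrays, so strong differences between populations can be compressed. Probe sets were named from the platform annotation and the TAIR10.1 gene table; of 20956, 12783 list 1 gene, 37 list several and 8136 list none, and 12720 of the 12783 were matched to that table by gene ID. No coordinates or sequences are given.

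The 43 members and all gene lists were chosen with earlier results of these data known. Membership was computed in Python 3.11.15 with pandas 2.3.3. The 12 arrays without early precursors were fitted with 1 mean per group (8 residual degrees of freedom) in limma 3.58.1 (R 4.3.3), with empirical Bayes moderation, two-sided tests in 5 comparisons, and Benjamini-Hochberg adjustment over all probe sets within each; the fit was checked on simulated data. Errors are SE from this fit, and SD for levels. The rule for naming took the 20 members with the greatest margin, those with a symbol, up to 5 rises and 5 falls per comparison, the 3 on each side of the margin threshold, neighbouring loci, genes with several probe sets and listed marker genes; other members listed by pattern, by spread or as called were named after their values were seen. AT3G16780 was taken as a ribosomal protein gene from general knowledge. The number of arrays limits the precision. Alternatives were all 15 arrays, only 2 groups, array weights, a variance trend, cyclic loess, a filter on low probe sets, a replicate block, averaging of late replicates 2 and 3, and leaving out each array. The filter on low probe sets took the mean over all 15 arrays, early precursors included. Members could thus pass it through their early values, and 38 of the 43 were tested in it.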

Additional observations from a re-analysis of the deposited data

How the results depend on the processing

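The choice itself gave 81 probe sets at a margin of 1.0 and 24 at 2.0 in place of 1.5, 65 with no separation of arrays and 67 after cyclic loess, which kept 42 of the 43; leaving out 1 array gave 40 to 83. For middle precursors against the epidermis, 2496 probe sets passed: 1157 with all 15 arrays, 1652 with only these groups, 1425 to 2640 with 1 array left out. The members higher numbered 18: 8 with all 15 arrays, 9 with only these groups, 10 after cyclic loess (with 1 lower, AT5G55680) and 9 to 18 with 1 array left out. For late precursors against the epidermis, 2924 passed: 1679 with all 15 arrays, 4604 with array weights, 1751 with late replicates 2 and 3 averaged, 1708 to 3230 with 1 array left out. The members lower numbered 2: 0 with all 15 arrays, only these groups or averaged late replicates, 1 with a variance trend or the replicate block, 4 after cyclic loess, 5 with array weights, and 0 to 3 with 1 array left out. For mature guard cells against the epidermis, 1944 passed: 820 with all 15 arrays, 533 with only these groups, 978 to 2590 with 1 array left out. The members higher numbered 1: 0 with only these groups, 2 with low probe sets filtered, 1 to 2 with 1 array left out. That filter used the early arrays too and left 38 of the 43 to be tested. The members lower numbered 0, and 1 after cyclic loess (AT5G55680), with 0 to 1 when 1 array was left out. For late against middle precursors, 1412 passed: 799 with all 15 arrays, 4389 with array weights, 723 with averaged late replicates, 715 to 1517 with 1 array left out. The members lower numbered 11: 3 with all 15 arrays, 31 with array weights, 5 with averaged late replicates, 7 with only these groups, 4 to 14 with 1 array left out. For mature guard cells against late precursors, 42 passed: 966 with array weights (members 2 higher, 1 lower), 10 with the replicate block, 3 with averaged late replicates, 0 with only these groups, 3 to 109 with 1 array left out. The cause of these changes was not tested, beyond the fewer arrays in some fits. Cyclic loess moved the share of higher calls over all probe sets to 44.5%, against 58.7% as deposited, for mature guard cells against the epidermis, and to 41.9%, against 54.8%, for mature guard cells against late precursors.

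Of 21 results of named genes, none changed direction in 20 alternatives each, and 7 kept their call in all of them. The replicate numbers of the labels did not clearly pair the arrays, and 3 arrays per group cannot settle whether they do. Of 18 pairs with the same number in different populations, 2 had correlated deviations above 0.1 (from -0.105 to 0.168). Both were between the epidermis and mature guard cells. Of 12 arrays 5 correlated best with their own number. With the replicate block the members higher in middle precursors numbered 16 and those lower in late than in middle precursors 12.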

Other observations

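The annotation limits which early-peaking probe sets can be named. Among the 8173 probe sets listed to no gene or to several, 35 (0.428%) met the same separation and margin, against 0.375% of those listed to 1 gene before any removal by name. The greatest margin among them was 3.46 (with a mean of 7.61 in early precursors and 4.15 in middle precursors), above the 3.27 of AT4G26660.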
